A study of Mus musculus with 36 samples.

Results

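Orm1, Orm2 and Orm3, which encode the orosomucoids, Serpina3n, Serpina3m and Serpina3g of the Serpina3 cluster, and Itih4 were followed in mouse lung after instillation of tube-shaped titanium dioxide nanoparticles (Tube TiO2NPs). These 7 genes encode acute phase proteins or their close relatives, and each was represented by the array probe of highest mean intensity among those whose RefSeq accession maps to its symbol. A probe was found for 6 of the 7 genes, of 36799 gene names on the array, and all 6 passed the filter on dim probes, as did 23255 gene names in all. No probe accession mapped to Serpina3g in the table used, and it was not analysed here.

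Female C57BL/6 mice, 5 to 7 weeks old, received 1 intratracheal instillation of 0, 18, 54 or 162 µg of Tube TiO2NPs in 40 µl, and lungs were taken at day 1 or day 28. Controls are the 0 µg mice, and their vehicle is not given in the sources used here. RNA came from random sections of the lung. At day 1 the groups held 4 control mice and 3, 3 and 4 mice at 18, 54 and 162 µg, and at day 28 they held 3 control mice and 4 mice at each of the 3 doses. Lung RNA in Cy5 was hybridised on 36 arrays against a reference RNA of 11 mouse cell lines in Cy3, so the measure is log2(Cy5/Cy3), in which a step of 1 is a doubling of the lung signal over the reference.

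The acute phase response is the change in secreted plasma proteins that follows tissue injury or infection, driven mainly through interleukin-6 with STAT3, interleukin-1 with NF-kB and C/EBP factors, and glucocorticoids. The liver is its main source, and lung and fat cells make several of the same proteins locally. Orosomucoids are lipid- and drug-binding lipocalins. Serpina3 genes, a cluster of copies in the mouse where humans have a single gene, encode inhibitors of serine proteases such as granzyme B and neutrophil proteases. Itih4 is a heavy chain of the inter-alpha-trypsin inhibitor family that is itself a protease inhibitor after cleavage.

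Promoter sequences were at hand in the RefSeq table of GRCm38.p6 for 5 of the 7 genes, and 4 are shown because they belong to the genes whose responses are set apart below. Each is the 250 bases before the annotated start, 5′ to 3′ on the plus strand. Capitals mark matches to 4 motifs searched on both strands: STAT3 as TTCNNNGAA, C/EBP as TTNNGNAAT, NF-kB as GGAANTTCC, and the glucocorticoid receptor as TGTTCT. None of the matches overlapped another.
Orm2, chr4:63362199-63362448: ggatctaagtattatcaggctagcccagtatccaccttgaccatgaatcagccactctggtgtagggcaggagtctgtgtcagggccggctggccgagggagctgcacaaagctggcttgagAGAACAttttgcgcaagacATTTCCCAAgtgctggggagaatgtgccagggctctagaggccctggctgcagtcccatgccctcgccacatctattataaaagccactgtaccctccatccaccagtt
Orm3, chr4:63355908-63356157: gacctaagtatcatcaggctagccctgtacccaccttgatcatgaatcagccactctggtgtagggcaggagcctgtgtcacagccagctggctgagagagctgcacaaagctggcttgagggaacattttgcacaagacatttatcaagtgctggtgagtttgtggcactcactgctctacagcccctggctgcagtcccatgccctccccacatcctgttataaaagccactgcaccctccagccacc
Serpina3n, chr12:104406458-104406707: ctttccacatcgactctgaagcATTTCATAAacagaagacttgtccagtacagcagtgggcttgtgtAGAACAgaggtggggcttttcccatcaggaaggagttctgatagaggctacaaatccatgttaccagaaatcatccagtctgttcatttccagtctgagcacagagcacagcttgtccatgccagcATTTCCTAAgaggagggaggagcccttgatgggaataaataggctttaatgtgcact
Itih4, chr14:30886226-30886475: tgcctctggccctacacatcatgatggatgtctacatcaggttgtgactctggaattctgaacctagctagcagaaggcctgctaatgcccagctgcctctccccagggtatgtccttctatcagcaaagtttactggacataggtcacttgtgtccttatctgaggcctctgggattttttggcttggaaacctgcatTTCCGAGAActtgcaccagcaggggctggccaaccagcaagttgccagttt

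The Orm2 promoter held 1 C/EBP match, from base 109 to base 101 before the start, and 1 glucocorticoid receptor match, from base 128 to base 123. The Orm3 promoter held none of the 4 motifs. The 2 orosomucoid promoters were otherwise much alike, with 219 of 245 aligned bases identical (89.4%) and 10 bases in gaps. The stretch of Orm2 that spans both matches is set against its aligned counterpart in Orm3, with the differing bases in capitals.
Orm2, chr4:63362321-63362348: AgaacattttgcGcaagacatttCCcaa
Orm3, chr4:63356029-63356056: GgaacattttgcAcaagacatttATcaa
Counted from 1 at the 5′ end of the stretch, with the Orm2 base first, the 4 differences are A1G, G13A, C24A and C25T. The Serpina3n promoter held 2 C/EBP matches and 1 glucocorticoid receptor match, and the Itih4 promoter held 1 STAT3 match from base 51 to base 43 before the start. Of 32851 promoters of the same length, 7.02% held the STAT3 motif, 10.2% the C/EBP motif, 0.813% the NF-kB motif and 16.1% the glucocorticoid receptor motif. A match describes the exact letters searched in this window, and no binding was measured. Other forms of the same sites were not searched, so a promoter without a match may still hold one.

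Several facts of the arrays bear on every value. The share of probes above background in Cy5 was 48.6% to 62.2% per array, and no spot was saturated. Of the 36 arrays, 12 carried skeletal muscle transcripts, with a mean level of the muscle list of 10.59 to 15.17 (log2 Cy5) against at most 8.01 on the other 24. At day 1 all 4 control mice had such an array, and 1 mouse each at 18, 54 and 162 µg did. At day 28 the numbers were 0 of 3 control mice, 1 of 4 at 18 µg, 3 of 4 at 54 µg and 0 of 4 at 162 µg. The labels of replicate 1 at 162 µg, day 28, conflict, since its title says day 1. In whole lung, more RNA per cell and more cells of a type cannot be told apart.

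At day 1, Serpina3n, Serpina3m and Itih4 rose at 162 µg, while Orm1 and Orm2 were high in every mouse of that dose but also in 1 control mouse, and were not called. The group means of Serpina3n and Serpina3m were ordered by dose at day 1 and lay within 0.44 of control at day 28. Itih4 stood above control at 162 µg on both days. In limma's fit across all genes, with Benjamini-Hochberg adjustment and an adjusted p under 0.05 as the call, 3 of the 6 measured genes were called up at 162 µg against control at day 1 and none down. In the same comparison 1.69% of all 23255 genes were called. The median log2 change of the 6 genes was 2.06, against 0.007 over all genes. In a fit of these groups alone Serpina3n was still called (adjusted p = 0.0329), and Serpina3m (adjusted p = 0.0576) and Itih4 (adjusted p = 0.141) were not.

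**Figure D1:**
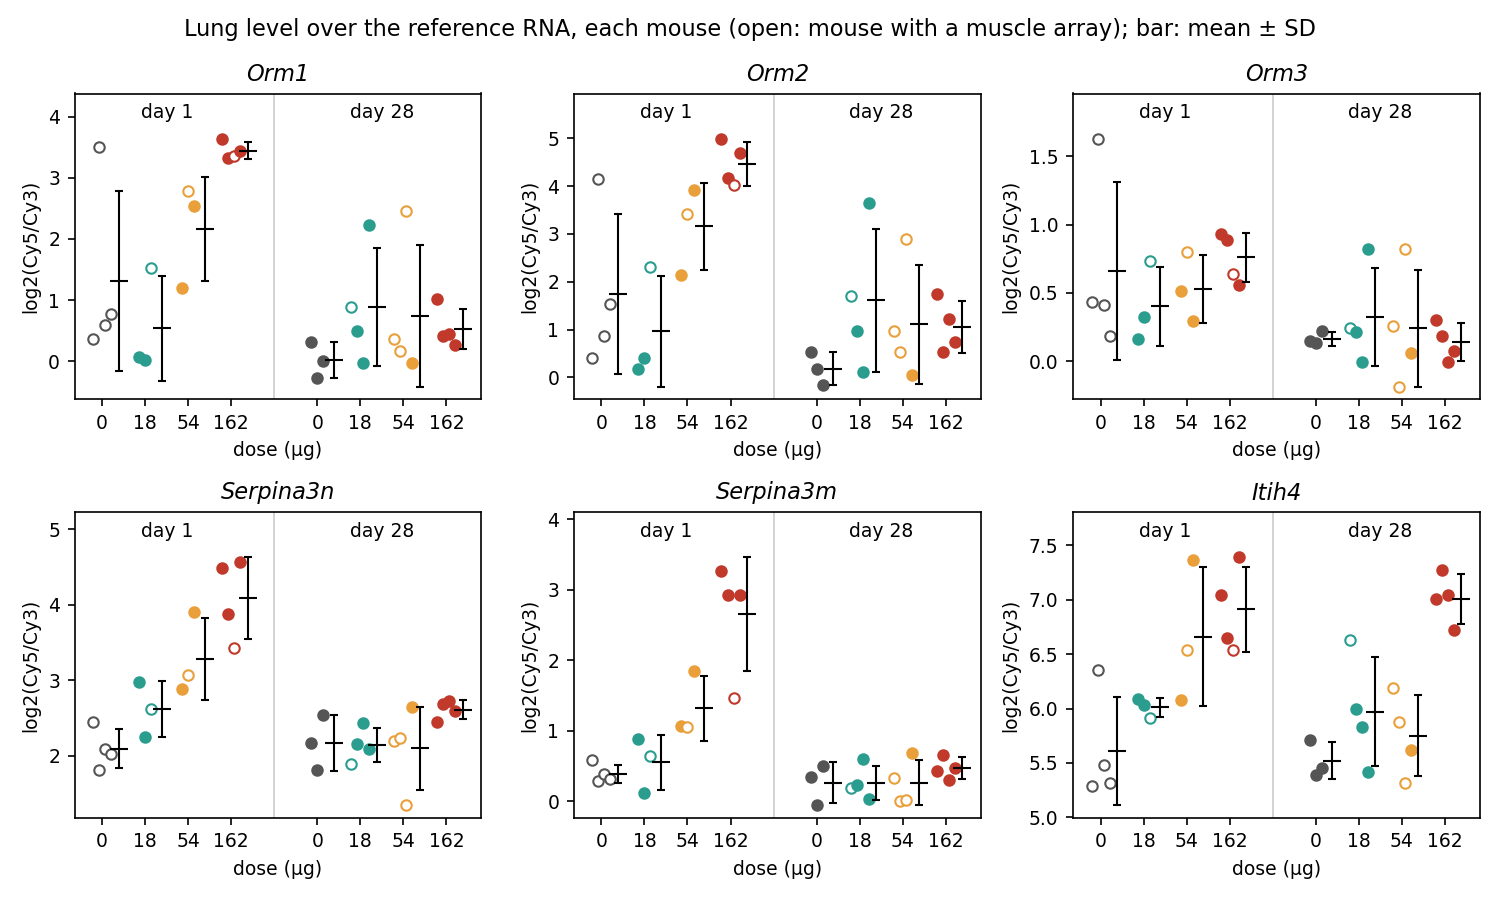
Level of the 6 genes in each mouse (log2(Cy5/Cy3), vertical axis of each panel) by dose in µg at day 1 and day 28, with open circles for mice that had an array with muscle transcripts and bars for mean ± SD. Serpina3m at day 1 lies between 1.46 and 3.27 at 162 µg and between 0.28 and 0.58 in controls, and Itih4 at 162 µg lies above all control mice on both days.

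Serpina3n, an inhibitor of granzyme B and neutrophil proteases, stood at 2.44, 1.81, 2.09 and 2.02 in the 4 control mice of day 1. It was 2.98, 2.25 and 2.62 at 18 µg, 2.88, 3.07 and 3.90 at 54 µg, and 4.48, 3.88, 3.42 and 4.57 at 162 µg. All mice at 54 and 162 µg stood above all controls, and the lowest value at 162 µg belonged to replicate 3, the mouse with a muscle array. The mean was 4.09 ± 0.54 at 162 µg and 2.09 ± 0.26 in controls (SD, n = 4 each), a log2 change of 2.00 (SE 0.27, adjusted p = 0.000115), or 4.00-fold. Within the 4 slide blocks that held both groups the difference was 1.34 to 2.55. Here and below, each such block sets 1 dosed mouse against 1 control mouse. Slides 1 and 5, which share mice, count as 1 block.

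The Cy3 signal of the Serpina3n probe, which reads the common reference, was also higher at 162 µg, at 7.73 ± 0.73 (log2), than in controls, at 6.51 ± 0.16 (SD, n = 4 each). The ratio change is therefore smaller than the change of Cy5 alone, which was 3.04 for Serpina3n (adjusted p = 3.46e-06). The same held for Itih4, with Cy3 at 7.33 ± 0.70 at 162 µg and 6.57 ± 0.30 in controls and a Cy5 change of 1.83. For Serpina3m the Cy3 means were 6.54 ± 0.22 at 162 µg and 6.43 ± 0.02 in controls. Why the reference channel moved was not tested.

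Serpina3m, a neighbour of Serpina3n in the cluster, stood at 0.58, 0.28, 0.39 and 0.32 in the 4 control mice of day 1. It was 0.88, 0.12 and 0.64 at 18 µg, 1.06, 1.05 and 1.85 at 54 µg, and 3.27, 2.93, 1.46 and 2.93 at 162 µg. Again every mouse at 54 and 162 µg lay above every control, and the mouse with a muscle array was the lowest at 162 µg. The log2 change at 162 µg was 2.26 (SE 0.27, adjusted p = 3.13e-05), or 4.78-fold, with 2.65 ± 0.81 at 162 µg and 0.39 ± 0.13 in controls (SD, n = 4 each). Between 162 and 54 µg at day 1 the change was 1.33 (SE 0.29, adjusted p = 0.0989), and none of the 6 genes was called there, against 0.0043% of all genes. Without replicate 3 at 162 µg, Serpina3m was called in that comparison, at 1.73 (adjusted p = 0.000554).

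At the lower doses of day 1 no gene of the 6 was called against control. At 54 µg the changes were 1.19 for Serpina3n (SE 0.29, adjusted p = 0.252), 0.92 for Serpina3m (SE 0.29, adjusted p = 0.465) and 1.05 for Itih4 (SE 0.29, adjusted p = 0.371), where 0.0516% of all genes were called. Orm1 was at 0.86 (SE 0.64), Orm2 at 1.42 (SE 0.80) and Orm3 at -0.13 (SE 0.26) in the same comparison. At 18 µg the changes were 0.53 for Serpina3n, 0.16 for Serpina3m and 0.40 for Itih4, and -0.77 for Orm1, -0.78 for Orm2 and -0.26 for Orm3, where 0% were called in limma's fit and 950 of 23255 genes had an unadjusted p under 0.05. Between 54 and 18 µg, with 0.0172% of all genes called, none of the 6 was called.

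Set against 18 µg in place of control, 162 µg gave 4 calls among the 6 genes at day 1, all up, where 2.05% of all genes were called. They were Orm1 at 2.90 (SE 0.64, adjusted p = 0.0146), Orm2 at 3.50 (SE 0.80, adjusted p = 0.0181), Serpina3n at 1.47 (SE 0.29, adjusted p = 0.00521) and Serpina3m at 2.10 (SE 0.29, adjusted p = 0.000238). All 4 mice at 162 µg stood above all 3 at 18 µg for each of these and for Itih4, whose change was 0.90 (SE 0.29, adjusted p = 0.144). How many of all genes separated groups in this way was not counted, for this or any other comparison. At 18 µg, day 1, Orm1 was above background on 1 of 4 arrays and Orm2 on 3 of 4, so their changes rest partly on signals near the floor there. Without replicate 1 at 18 µg the count was 2, without replicate 2 at 18 µg it was 1, without replicate 1 or replicate 4 at 162 µg it was 3, with Orm2 not called (adjusted p = 0.0578 and 0.0524), and with the mouse of conflicting labels moved to day 1 it was 0.

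Itih4 had a high lung signal in every mouse. At day 1 it was 5.29, 6.35, 5.48 and 5.32 in controls, 6.09, 6.03 and 5.91 at 18 µg, 6.08, 6.54 and 7.36 at 54 µg, and 7.04, 6.65, 6.54 and 7.39 at 162 µg. Replicate 2 stood apart among the controls, and all 4 mice at 162 µg lay above it. The log2 change at 162 µg was 1.30 (SE 0.27, adjusted p = 0.0097), or 2.46-fold, and 0.30 to 2.08 within the 4 slide blocks. With Agilent's processed signals the change was 0.65 (adjusted p = 0.421), and without replicate 4 at 162 µg it was 1.14 (adjusted p = 0.0577).

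A second Itih4 probe, with the same accession, differed by 1.44 between 162 µg and control at day 1 and by 1.48 at day 28. Its mean at 162 µg, day 28, was 3.90, against 2.42 in controls. Both probes thus differed by more than 1 on the log2 scale on both days.

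At day 28, Itih4 was 5.71, 5.39 and 5.45 in controls, 6.63, 6.00, 5.83 and 5.42 at 18 µg, 6.19, 5.88, 5.32 and 5.62 at 54 µg, and 7.01, 7.27, 7.04 and 6.72 at 162 µg. The 4 mice at 162 µg lay above every other mouse of that day. The log2 change against control was 1.49 (SE 0.29, adjusted p = 0.0104), or 2.81-fold, with 7.01 ± 0.23 at 162 µg (SD, n = 4) and 5.52 ± 0.17 in controls (SD, n = 3). It was 1.27 to 1.65 within the 3 slide blocks that held both groups. Itih4 was the 1 gene of the 6 that was called, where 0.628% of all genes were.

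That call depends on the processing and on single mice. With Agilent's processed signals the change of Itih4 was 1.28 (adjusted p = 0.17). Without replicate 2 at 162 µg it was 1.40 (adjusted p = 0.0523), without control replicate 2 it was 1.43 (adjusted p = 0.0821), and without control replicate 3 it was 1.46 (adjusted p = 0.0727). Replicate 1 at 162 µg, the mouse with conflicting labels, is not among these.

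Against 54 µg, Itih4 at 162 µg was higher by 1.26 at day 28 (SE 0.27, adjusted p = 0.0174), and it was again the 1 gene of the 6 called, where 1.01% of all genes were. That call was lost without replicate 2 at 162 µg (1.17, adjusted p = 0.091), without replicate 3 at 54 µg (1.11, adjusted p = 0.104) and without the muscle arrays (1.39, adjusted p = 0.227). The last setting leaves 1 mouse at 54 µg, whose spread is taken from the other groups. Against 18 µg the change was 1.04 (SE 0.27, adjusted p = 0.0709), all 4 mice at 162 µg lay above all 4 at 18 µg, and none of the 6 was called, where 1.02% of all genes were. Without replicate 1 at 18 µg, the mouse of that group with a muscle array, Itih4 was called at 1.26 (adjusted p = 0.0273). Against control at 54 and 18 µg, and between these doses, none of the 6 was called at day 28, and 0% of all genes were in each of the 3 comparisons. At an unadjusted p under 0.05 these comparisons held 1430, 1006 and 968 of 23255 genes.

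Serpina3n at day 28 was 2.17, 1.81 and 2.54 in controls, 1.89, 2.15, 2.43 and 2.09 at 18 µg, 2.20, 2.23, 1.34 and 2.64 at 54 µg, and 2.44, 2.68, 2.73 and 2.59 at 162 µg, and its 162 µg mice overlapped the controls. The change at 162 µg was 0.44 (SE 0.29, adjusted p = 1), with a 95% interval of -0.16 to 1.03. Serpina3m was 0.35, -0.06 and 0.50 in controls, 0.19, 0.23, 0.60 and 0.03 at 18 µg, 0.33, 0, 0.02 and 0.69 at 54 µg, and 0.43, 0.66, 0.30 and 0.47 at 162 µg. These groups overlapped as well, with a change at 162 µg of 0.20 (SE 0.29, adjusted p = 1) with an interval of -0.40 to 0.81. Both intervals end below the lower bounds at day 1, which were 1.45 for Serpina3n and 1.69 for Serpina3m. These intervals are not adjusted over genes, and the direct test of the difference between days, given next, called neither gene.

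The change in the dose effect between the days was tested directly. At 162 µg the day 28 change minus the day 1 change was -2.05 for Serpina3m (SE 0.40, adjusted p = 0.0778) and -1.56 for Serpina3n (SE 0.39, adjusted p = 0.28). For Itih4 it was 0.19 (SE 0.40, adjusted p = 1), for Orm1 -1.62 (SE 0.88, adjusted p = 1) and for Orm2 -1.85 (SE 1.08, adjusted p = 1). None of the 6 was called, where 0.0258% of all genes were. Serpina3m was called with the slide as a block, at -2.06 (adjusted p = 0.025), and without replicate 3 at 162 µg, day 1, at -2.45 (adjusted p = 0.000142). At 54 and 18 µg none was called and 0% of all genes were, with 2371 and 1553 genes at an unadjusted p under 0.05.

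**Figure D2:**
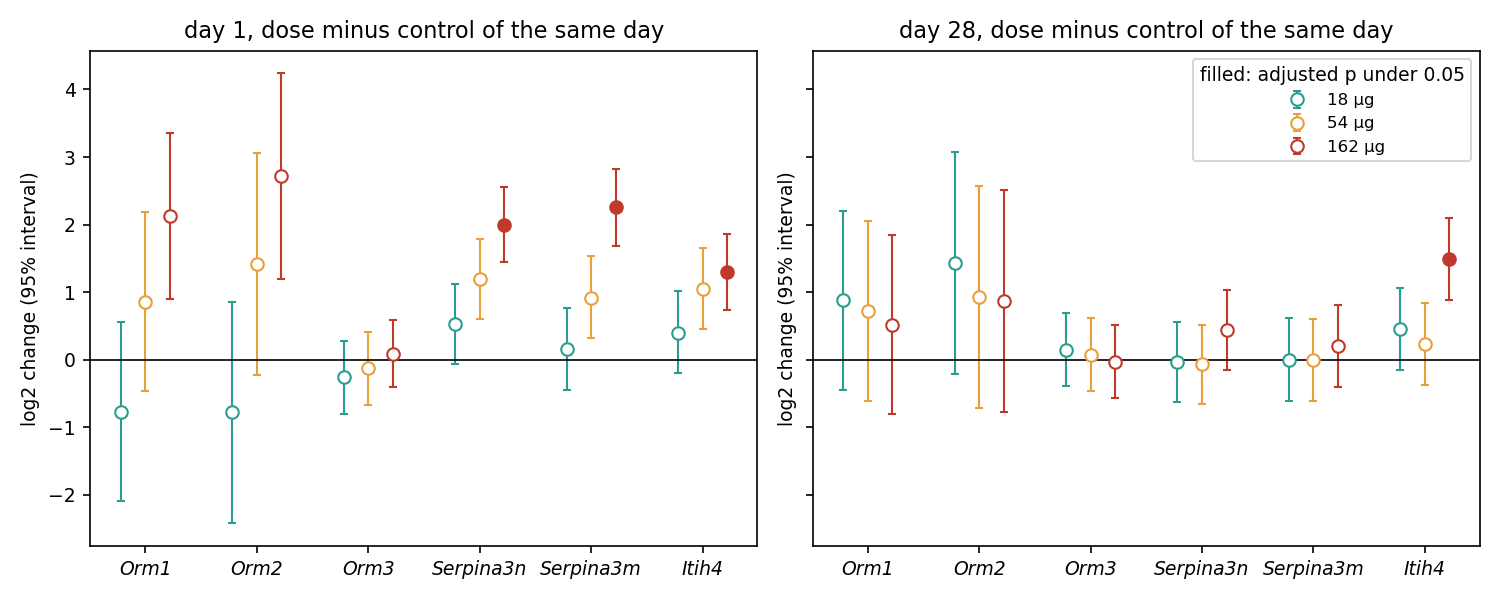
Log2 change of each gene at 18, 54 and 162 µg against the control of the same day (vertical axis, with 95% intervals), with filled points for an adjusted p under 0.05. The filled points are Serpina3n, Serpina3m and Itih4 at 162 µg, day 1, and Itih4 at 162 µg, day 28, and the widest intervals belong to Orm1 and Orm2.

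Orm1, which encodes a glycoprotein of plasma, was 0.36, 3.50, 0.60 and 0.78 in the 4 control mice of day 1. It was 0.07, 0.02 and 1.53 at 18 µg, 1.20, 2.78 and 2.54 at 54 µg, and 3.64, 3.33, 3.35 and 3.44 at 162 µg. The 4 mice at 162 µg differed from each other by little (SD 0.14), and control replicate 2 stood inside their range. The log2 change at 162 µg was 2.13 (SE 0.59, adjusted p = 0.0719) and was not called. Without control replicate 2 it was 2.86 (adjusted p = 0.00272).

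Orm2 was 0.41, 4.14, 0.87 and 1.54 in the same control mice. It was 0.18, 0.41 and 2.30 at 18 µg, 2.15, 3.42 and 3.91 at 54 µg, and 4.99, 4.16, 4.02 and 4.69 at 162 µg. Both genes were above background on 5 of 5 arrays at 162 µg, day 1, and on 4 of 5 control arrays. The same control mouse lay among the 162 µg mice, and the other 3 controls lay below every mouse at 54 and 162 µg. The change at 162 µg was 2.72 (SE 0.74, adjusted p = 0.0608), or 6.60-fold, and 3.52 without control replicate 2 (adjusted p = 0.00553). It was also called without replicate 3 at 162 µg, at 2.87 (adjusted p = 0.0485), and with median centring in place of loess, at 2.76 (adjusted p = 0.0497). In slide blocks it ran from 0.01 to 4.58, the low value being in the block that held control replicate 2.

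Orm3, whose promoter resembles that of Orm2, was 0.93, 0.89, 0.64 and 0.56 at 162 µg, day 1, against 0.43, 1.63, 0.41 and 0.18 in controls, a change of 0.09 (SE 0.24, adjusted p = 0.918) with an interval of -0.40 to 0.59. Its highest value among all 29 mice was again control replicate 2. Without that mouse the change was 0.42, and it was not called. Under Agilent's processed signals its sign turned, to -0.01. The orosomucoid genes are copies of each other, and whether a probe of 1 reads RNA of another was not tested.

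At day 28 the orosomucoids were low in most mice and high in a few that shared no dose. Orm1 was 0.32, -0.27 and 0 in controls, 0.88, 0.49, -0.03 and 2.23 at 18 µg, 0.36, 0.16, 2.46 and -0.03 at 54 µg, and 1.01, 0.41, 0.44 and 0.26 at 162 µg. Orm2 was 0.54, 0.17 and -0.16 in controls, 1.70, 0.97, 0.12 and 3.65 at 18 µg, 0.97, 0.54, 2.89 and 0.05 at 54 µg, and 1.74, 0.52, 1.22 and 0.73 at 162 µg. In these controls Orm1 was above background on 1 of 4 arrays and Orm2 on 2 of 4. Replicate 4 at 18 µg and replicate 3 at 54 µg stood apart for both genes and for Orm3, at 0.82 in each. At 162 µg the changes were 0.51 for Orm1 (SE 0.64, adjusted p = 1) and 0.87 for Orm2 (SE 0.80, adjusted p = 1), and wide intervals left a rise of up to 1.84 for Orm1 and 2.51 for Orm2 inside them.

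Adipocyte markers (Adipoq, Plin1, Cidec, Lep, Retn, Cfd, Lipe and Fabp4) moved with these single mice. The ranks that follow cover the 22 mice outside the 54 and 162 µg groups of day 1. This subset was not planned, and it leaves out groups with high Orm1 and Orm2. Among these 22 the mean adipocyte level was highest in control replicate 2 of day 1, at 13.4 (log2 Cy5). Next came replicate 3 at 54 µg, day 28, at 13.05, and replicate 4 at 18 µg, day 28, at 12.97. The same 3 mice held the 3 highest values of Orm1, of Orm2 and of Orm3. The fourth on all 4 measures was replicate 3 at 18 µg, day 1, with an adipocyte level of 12.1. At day 1 the adipocyte level was 7.55 to 12.63 at 162 µg and 9.14 to 13.4 in controls.

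High orosomucoid values were also measured at a low adipocyte level. Replicate 2 at 162 µg, day 1, had an adipocyte level of 7.55 and Orm2 at 4.16, and replicate 3 at 54 µg, day 1, had 7.26 and Orm2 at 3.91. With the adipocyte level as a covariate, an alternative chosen after seeing the data, the change at 162 µg, day 1, was 2.57 for Orm1 (adjusted p = 0.00113) and 3.23 for Orm2 (adjusted p = 0.00181), while Orm3 was at 0.25 (adjusted p = 0.668). Under the same covariate Serpina3n was at 1.82, Serpina3m at 2.08 and Itih4 at 1.26, all called.

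**Figure D3:**
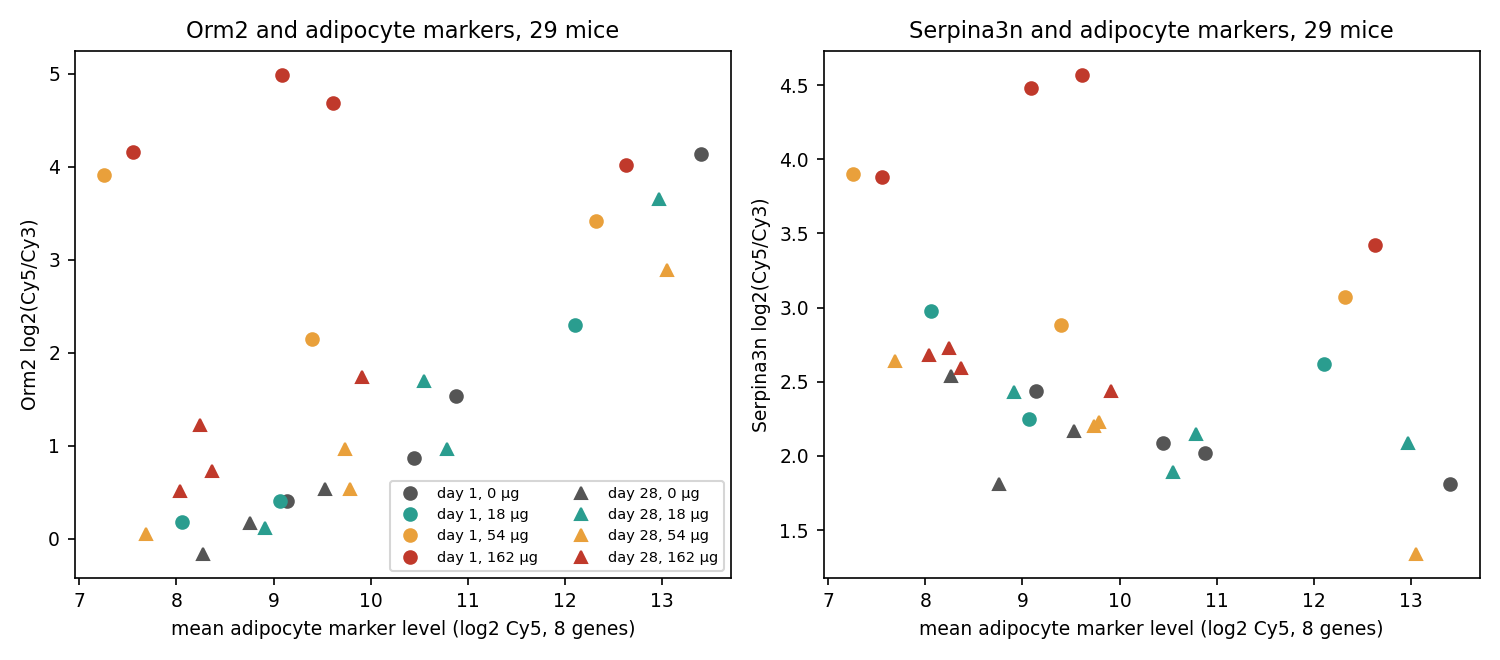
Orm2 and Serpina3n (log2(Cy5/Cy3), vertical axes) against the mean adipocyte marker level (log2 Cy5, horizontal axis) in 29 mice, coloured by dose, with circles for day 1 and triangles for day 28. In the Orm2 panel the control mouse at 13.4 lies among the 162 µg mice of day 1. The 18 and 54 µg mice of day 28 at 12.97 and 13.05 lie in the range of the 54 µg mice of day 1. They lie below every 162 µg mouse of day 1 and above every 162 µg mouse of day 28. In the Serpina3n panel all of these lie below every 54 and 162 µg mouse of day 1.

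The skeletal muscle transcripts differed between the groups of day 1 as well, with mean levels of 7.13 to 14.33 at 162 µg and 10.91 to 13.52 in controls. Without the muscle arrays, which leaves 1 control array at day 1 whose spread is taken from the other groups, all but Orm3 were called at 162 µg. Orm1 was then at 3.39 (adjusted p = 0.0121), Orm2 at 4.84 (adjusted p = 0.0177), Serpina3n at 1.63 (adjusted p = 0.0358), Serpina3m at 2.58 (adjusted p = 0.00134) and Itih4 at 1.67 (adjusted p = 0.0343). The part of squamous epithelium, whose level was 6.97 to 11.98 at 162 µg and 7.08 to 12.29 in controls, and of cardiac muscle, at 9.72 to 12.60 and 11.50 to 13.65 in the same groups, was not tested alone.

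Of 15 markers of hepatocytes, the main source of these proteins, 6 were tested. At 162 µg against control, day 1, none was called up and 1, Fabp1, was called down at -1.77 (adjusted p = 0.0133). In that comparison 1.69% of all genes were called, and the part of liver RNA in the changes was not tested. Of the list, Tat, Ahsg, Fabp1 and Cyp2e1 were above background on every array, and Apoh, Hpd, Cyp2c29, Cyp3a11 and Tdo2 on 0 arrays. G6pc was above it on 3 of 5 arrays at 162 µg, day 1, and on 4 of 5 control arrays. Alb was above it on 0 of 5 and 3 of 5 in the same groups. Apoa1, Serpinc1, Cps1 and Ttr were above it on some arrays only. The mean hepatocyte level was 6.68 to 7.00 at 162 µg and 6.86 to 7.23 in controls. The neutrophil list stood at 9.80 to 10.10 at 162 µg and 8.91 to 10.01 in controls at day 1, and its part in the changes was not tested. Of its 10 tested markers 1, Mmp8, was called up and none down at 162 µg, day 1, where 1.69% of all genes were called. The median change of these 10 was 0.27. Lung markers were present in every group, with alveolar type II genes at 13.99 to 14.82 at 162 µg and 14.09 to 14.78 in controls over both days.

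Arrays of the same mouse differed at times by as much as groups did. Over 7 mice measured on 2 arrays, the median gap between arrays was 0.45 for Orm1, 0.36 for Orm2, 0.14 for Orm3, 0.19 for Serpina3n, 0.36 for Serpina3m and 0.12 for Itih4. Replicate 1 at 54 µg, day 1, had the widest gap for 5 of these 6 genes, with Orm2 at 0.89 and 3.41, Orm1 at 0.34 and 2.07, and Itih4 at 5.46 and 6.71. Serpina3n had its widest gap, of 0.99, in replicate 1 at 18 µg, day 1. Neither of these mice had a muscle array.

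Across the 29 mice, Orm1 with Orm2 and Serpina3n with Serpina3m were the most alike of the 6 genes. The Pearson r of log2(Cy5/Cy3), given as a description over mice that share groups and arrays, was 0.98 between Orm1 and Orm2, 0.94 between Serpina3n and Serpina3m, and 0.67 between Itih4 and Serpina3n. Orm3 was at 0.82 with Orm1, 0.77 with Orm2 and 0.10 with Itih4. Among all named genes, the most alike to Orm1 after Orm2 were Nnmt, a methyltransferase of nicotinamide (0.88), and Dclk1, a kinase (0.87). Orm2 was most like Orm1, Dclk1 and Fgl1, a secreted liver protein (0.88 for both Dclk1 and Fgl1), and Orm3 was most like Nnmt (0.86), Glul, which is glutamine synthetase (0.85), and Plppr3 (0.83).

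For Serpina3n the most alike after Serpina3m were Mcm3 and Mcm6 (0.91 each), and for Serpina3m they were Mcm2 (0.95) and, beside Serpina3n, the serum amyloid gene Saa2 (0.94). The Mcm genes encode the DNA replication helicase. Itih4 was most like Lcn2, the siderophore-binding lipocalin (0.92), complement factor B, Cfb (0.90), and the ribonuclease gene Ear6 (0.89).

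The other genes of the response were counted from lists chosen with earlier results of these data known. Of 24 other positive acute phase genes, 21 were tested, and 12 were called up and none down at 162 µg, day 1, where 1.69% of all genes were called. Saa2 was not well above background on any of 5 control arrays and was above it on 5 of 5 at 162 µg, so it was at least 17.3-fold higher there (adjusted p = 3.13e-11). That bound sets the mean Cy5 signal at 162 µg against, in each control array, the higher of the probe's own signal and the lowest signal well above background. Saa1 rose by 4.98 (SE 0.38, adjusted p = 2.21e-08) and Saa3, the serum amyloid made outside the liver, by 7.06 (SE 0.57, adjusted p = 5.13e-08). At 162 µg, day 28, 4 of the 21 were called, where 0.628% of all genes were, all up: Cfb at 1.17, Saa1 at 1.79, Saa3 at 4.41 and Lcn2 at 2.00. The median change of the list was 0.86 at day 1 and 0.40 at day 28. Of 9 negative acute phase genes, 6 were tested and none was called on either day.

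**Figure D4:**
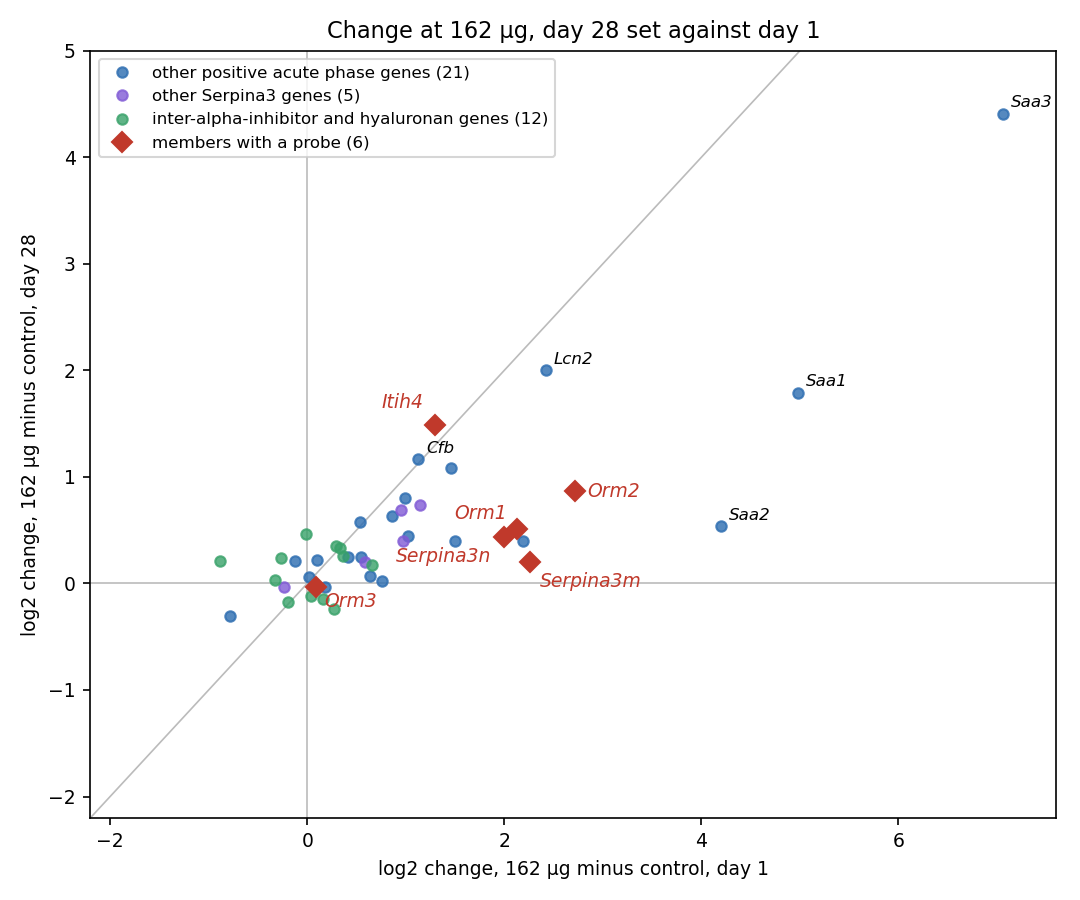
Log2 change at 162 µg against control at day 28 (vertical axis) set against that at day 1 (horizontal axis) for the 6 genes (diamonds) and for the tested genes of 3 lists (circles), with the line of equal change. Itih4 lies near the line with Lcn2 and Cfb, and Serpina3m, Serpina3n, Orm1 and Orm2 lie below it, toward Saa2, whose plotted values are fitted ones against controls not above background.

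Other genes of the Serpina3 cluster rose as well. Of 8 others on the array 5 were tested, and 3 were called up at 162 µg, day 1: Serpina3i at 1.14 (SE 0.17, adjusted p = 0.00031), Serpina3h at 0.97 (SE 0.15, adjusted p = 0.000359) and Serpina3f at 0.95 (SE 0.19, adjusted p = 0.0076), against 1.69% of all genes. None of the 5 was called at 162 µg, day 28, where 0.628% of all genes were, and their median change there was 0.40. Whether the probes of these copies read each other's RNA, or that of Serpina3n and Serpina3m, was not tested. Of 7 tested serpin A genes outside the cluster, 2 were called up at 162 µg, day 1, Serpina11 at 0.68 and Serpina10 at 0.49, both known mainly from liver. The median change of these 7 genes was -0.21, and 1.69% of all genes were called there.

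The relatives and partners of Itih4 were counted too. Of 15 inter-alpha-inhibitor and hyaluronan genes 12 were tested, and none was called at 162 µg on either day, a count near what 1.69% of all genes at day 1 and 0.628% at day 28 would give. Their median change was 0.10 at day 1 and 0.19 at day 28. Itih1 was at -0.01, Itih2 at -0.19 and Itih3 at 0.36 (adjusted p = 0.348) at day 1. At day 28 they were at 0.46 (SE 0.13, adjusted p = 0.167), -0.17 and 0.26 in the same order.

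Of the cytokines that drive the response, 6 of 10 were tested and 2 were called up at 162 µg, day 1, where 1.69% of all genes were called: Il1b at 1.58 (adjusted p = 0.0166) and Tnf at 0.70 (adjusted p = 0.0145). Il6 was tested and not called. It was above background on 4 of 5 arrays at 162 µg and on 0 of 5 control arrays of day 1. In the same comparison 3 of 22 receptors and transcription factors were called up: Osmr, the oncostatin M receptor (0.67), Cebpb, a C/EBP factor (0.57), and Relb, an NF-kB subunit (0.61). None of 10 glucocorticoid-responsive genes and none of 10 proteases that serpins of this kind inhibit was called. Of 20 genes in a list named for interferon gamma, 5 were called at 162 µg, day 1: Ifit1, Irf7, Rsad2, Zbp1 and Cxcl10 (2.30). At 162 µg, day 28, where 0.628% of all genes were called, 12 of the 20 were. Among these were Cxcl10 (2.24) and, not called at day 1, Cxcl9, Gbp5, Igtp and Irgm1. All these calls were up, and which interferon acts on these genes was not tested. At 162 µg, day 28, none of the cytokines, receptors and transcription factors was called.

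Between the control groups of day 28 and day 1 none of the 6 genes was called and 0% of all genes were, with 1162 at an unadjusted p under 0.05. The widest differences, day 28 minus day 1, were -1.56 for Orm2 (SE 0.80, adjusted p = 0.777) and -1.29 for Orm1 (SE 0.64, adjusted p = 0.777), both of which include control replicate 2 of day 1. For Serpina3n, Serpina3m and Itih4 they were 0.08, -0.13 and -0.09. The doses of 1 day share their control mice, so their changes against control are not independent of each other.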

How the data were processed

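Lung RNA of 29 mice was measured on 36 two-colour Agilent arrays. Per the file headers, the authors quantified spots with Agilent Feature Extraction 11.0.1.1. The deposited files hold, for both dyes, each spot's intensity, its local background and a processed signal. The deposited value table holds log2 ratios of Cy5 over Cy3, with column medians of -0.039 to -0.017 and r of 0.986 to 0.997 to the ratios computed here; how it was normalized is not given in the sources used here. Dyes were not swapped.

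Median signals were corrected with normexp (offset 50) and normalized by loess within arrays with limma 3.58.1 in R 4.3.3, reading files with version 1.17.8 of data.table. Spots of a probe and then arrays of a mouse were averaged (7 mice had 2 arrays). Mice were grouped by the dose and time labels. The plan named mean signals, but the files give medians. Of 55681 probes, 28026 matched a symbol by RefSeq accession in the GRCm38.p6 gene list. A gene was tested if Cy5 was well above background on every array of 3 mice of 1 group. Depth here is signal over background, and the number of arrays limits precision.

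The 29 mice entered 1 limma fit with 8 group means, two-sided, with Benjamini-Hochberg adjustment per comparison over 23255 genes. The code was tested on simulated data. Each sample id in the labels was taken as 1 mouse; if ids shared an animal, p-values would measure partly technical spread. The genes named are the listed members, for each the 3 most alike genes by Pearson r, and up to 3 called genes of each list. Members and lists were chosen with earlier results of these data known. Some genes were named outside the rule and chosen after their values were seen. Among them are list members that were not called and the day 28 calls of the acute phase list. The hepatocyte markers given by their detection and further called genes of the interferon list are also among them. Alternatives covered background correction, normalization, channel, filter, probe choice, slide, samples, muscle and adipocyte transcripts, the conflicting label, repeat arrays, weights, and each mouse left out.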

Additional observations from a re-analysis of the deposited data

Results flagged for a closer look

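Among 30 sets of 4 mice (a gene in a group), 3 held a mouse whose gap to its nearest neighbour took up more of the range than Dixon's critical value for 4 allows. Chance flags about 1 in 20 such sets. Control replicate 2 of day 1 was one, with Orm1 at 3.50 against 0.36 to 0.78 in the other controls and Orm3 at 1.63 against 0.18 to 0.43. The other was replicate 3 at 54 µg, day 28, with Orm1 at 2.46 against -0.03 to 0.36. These mice had the highest and the second highest adipocyte marker level of the 29, at 13.4 and 13.05 (log2 Cy5), and both had an array with muscle transcripts. The part of either in these values was not tested beyond the covariates given.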

How the results depend on the processing

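Over 15 alternatives and 29 mice left out in turn, 2262 changes of the 6 genes were recomputed: 2185 stayed on their side of the threshold, 165 of these uncalled with the opposite sign, 30 lost the call, 47 gained one and 0 called changes reversed. The number of genes called of the 6 changed as follows, and the cause was not tested. At 162 µg against control, day 1, with 3 called, it was 1 in a fit of only those groups, 2 with Agilent's processed signals (Itih4 lost), 4 with median centring (Orm2 gained) and 5 without the muscle arrays, with muscle and squamous scores as covariates, with all 36 arrays and the mouse as a random block, with array quality weights and with the adipocyte level as a covariate. At 54 µg against control, day 1, with 0 called, it was 1 with median centring and with array weights, namely Itih4. At 162 µg against 54 µg, day 1, with 0 called, it was 1 without the muscle arrays, with either set of covariates and with the mouse as a random block, and 4 with array weights. At 162 µg against 18 µg, day 1, with 4 called, it was 1 with Agilent's processed signals, 2 in a fit of only those groups, 3 with median centring (Serpina3n lost), 5 with Cy5 alone, muscle and squamous covariates, the mouse as a random block and array weights (Itih4 gained in each), and 0 with the mouse whose labels conflict counted as day 1. At day 28, the 1 call at 162 µg against control became 0 with Agilent's processed signals, and the 1 call against 54 µg became 0 with those signals, without the muscle arrays and with muscle and squamous covariates. At 162 µg against 18 µg, day 28, with 0 called, it was 1 with median centring, the deposited value table, Cy5 alone, the mean of all probes, no muscle arrays, muscle and squamous covariates, the mouse as a random block and array weights. For the change at day 28 minus that at day 1 at 162 µg, with 0 called, it was 1 with Cy5 alone (Serpina3n) and, each time Serpina3m, with the slide as a block, no muscle arrays, either set of covariates and the mouse as a random block, and 2 with array weights (both). Leaving out 1 mouse gave 2 to 5 calls at 162 µg against control, day 1, 0 to 1 against 54 µg, day 1, 1 to 4 against 18 µg, day 1, and 0 to 1 in the 3 comparisons of 162 µg at day 28 and in its change between days; the mice are named in the results. Over all genes, 394 were called at 162 µg against control, day 1, and 38 to 2513 under the alternatives, and 146 at day 28, with 88 to 578. With the group means removed, the consensus correlation of what remained between arrays of 1 mouse was -0.03 over all genes. It does not measure how alike the whole profiles of 2 arrays were. With this value, the fit with the mouse as a random block treated the 36 arrays as nearly independent. Signal over background limits Orm1, Orm2 and Orm3, which were above it on 27, 29 and 29 of 36 arrays. No paired analysis was possible by replicate number, because these numbers were given in accession order and mark no shared animal, litter or day; slides were used as blocks instead.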
